A study of Bos taurus with 6 samples.

Results

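The 10 genes described here encode the coat proteins of lipid droplets, the proteins that fuse droplets, and the enzymes that start the breakdown of stored fat. They are PLIN1, PLIN2, PLIN3, PLIN4, PLIN5, CIDEA, CIDEC, PNPLA2, LIPE and ABHD5. They were chosen by name for this role, with earlier results of these data known. They are 10 of the 21972 genes in the deposited table. In that table PLIN1 is named PLIN, PLIN3 is M6PRBP1 and LIPE is HSL. The samples were longissimus dorsi muscle, the large back muscle on which marbling is judged, from 3 Japanese black (Wagyu) cattle (animals WC616, WC719, WC921) and 3 Chinese Red Steppes cattle (animals RC4, RC5, RC6). Values of the animals of a breed are listed in that order. All 6 animals were males of 28 months, with 1 messenger RNA library each. The males of a breed had a common sire and were kept on 1 farm, so breed, sire and farm cannot be told apart. The study set the breeds side by side because Wagyu beef is the more marbled.

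A lipid droplet is a core of triacylglycerol under a single layer of phospholipid, and perilipins sit on that layer and control how lipases reach the core. Fat cells hold 1 very large droplet coated mainly by PLIN1 and enlarged by CIDEC and CIDEA, whereas muscle fibres hold many small droplets next to mitochondria, coated by PLIN2, PLIN3 and PLIN5. Lipolysis runs in steps: PNPLA2 (ATGL) with its coactivator ABHD5 (CGI-58) removes the first fatty acid, LIPE (hormone-sensitive lipase) the next, and monoacylglycerol lipase the last. PLIN1, PLIN4, CIDEA, CIDEC and LIPE are taken here as the fat cell forms and PLIN2, PLIN3, PLIN5, PNPLA2 and ABHD5 as the muscle fibre forms. This grouping is by name only and does not show which cells a message came from. In a piece of whole muscle, fewer cells of a type and less RNA per cell cannot be told apart.

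Values are FPKM, in which reads are divided by the length of the gene and by the reads counted to genes in the library, so levels can be set side by side between genes. Each library rests on 15438095 to 16197141 reads counted to genes. Muscle fibre markers dominated every library, with a summed level of 86314 to 94091 FPKM in Wagyu and 98702 to 101901 FPKM in Chinese Red Steppes. RC6 stood apart from the other libraries in its read counts as a whole. The chi-square over its degrees of freedom was 153 to 195 for pairs with RC6 and 28.7 to 77.3 for pairs without it. RC6 also stood apart in slow oxidative fibre markers: the median gene of that list lay 1.57 above the mean of RC4 and RC5 on the log2(FPKM + 1) scale, against 0.03 for the median of all genes tested. The summed level of the slow fibre list was 36751 to 49099 FPKM in Wagyu and 25977 to 81194 FPKM in Chinese Red Steppes, where RC6 was the highest.

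The breeds were compared with limma on log2(FPKM + 1) over the 9990 genes with a mean of at least 1 FPKM, and p-values were adjusted over all of them. Of the 10 genes, 9 entered this fit, and CIDEC fell below the minimum. None of the 9 passed an adjusted p of 0.05 in limma, with adjusted p from 0.202 to 0.884, against 2 of all genes tested (0.02%). At an unadjusted p under 0.05 there was 1 of 9, PLIN2, against 14.5% of all genes tested. In edgeR on whole reads recovered from the FPKM none of the 10 passed (0.0685% of all genes tested did), and 1 of the 10 had an unadjusted p under 0.05, against 14.1% of all genes tested. In DESeq2 on the same reads 1 of the 10 passed, again PLIN2, against 1.94% of the 12200 genes given an adjusted p. There 2 of the 10, PLIN2 and PLIN5, had an unadjusted p under 0.05, against 9.87% of the 16752 genes given a p. That larger set also holds genes with few reads. The levels of the breeds did not overlap with Wagyu higher for 1 of the 9 (11.4% of all genes tested) and with Wagyu lower for 0 of the 9 (9.16% of all genes tested). The fold changes of the 9 genes were above 0 for 5 and below 0 for 4, with a median of 0.14 on the log2 scale, against 0.03 for all genes tested.

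**Figure D1:**
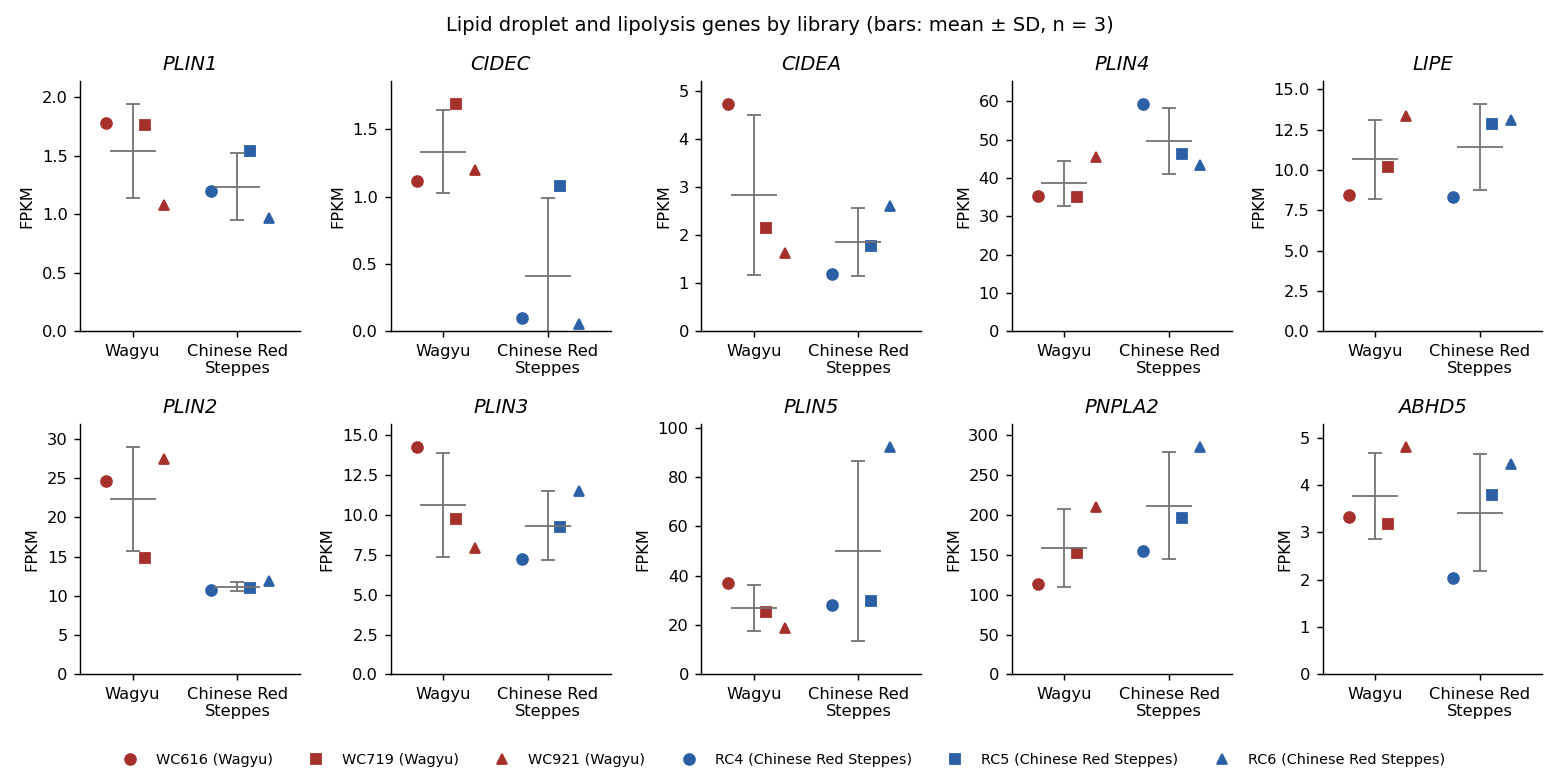
FPKM of the 10 genes in each library, Wagyu left and Chinese Red Steppes right; the top row holds the fat cell forms and the bottom row the muscle fibre forms. Symbols are single animals, and grey bars are the mean and SD of 3; the lower bar of CIDEC in Chinese Red Steppes ends below 0 and is cut at the axis. PLIN2 and CIDEC are the panels without overlap, and RC6 stands far above the other 5 animals for PLIN5.

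PLIN2 (ENSBTAG00000005718), also called adipophilin, is the perilipin found on droplets of nearly every cell type, and the protein is known to be degraded when no droplets are there to bind. It was measured at 24.6, 14.8 and 27.5 FPKM in Wagyu, against 10.7, 11.0 and 11.9 FPKM in Chinese Red Steppes. The 3 Wagyu values lay above the 3 Chinese Red Steppes values, which were close together, and WC719 was nearer to them than to WC616 or WC921. The mean was 22.3 ± 6.65 FPKM in Wagyu and 11.2 ± 0.597 FPKM in Chinese Red Steppes (± SD, 3 animals each), and the ratio of the means was 2.00. The counts behind these values were 713, 438 and 810 reads in Wagyu and 314, 315 and 334 in Chinese Red Steppes.

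The limma log2 fold change of PLIN2 was 0.89 (standard error 0.23, 95% interval 0.37 to 1.42), with an unadjusted p of 0.00461 and an adjusted p of 0.202. A two-sided exact permutation test gave p = 0.1, the smallest value that 3 against 3 animals can give. DESeq2 gave 0.98 (standard error 0.28, adjusted p = 0.0274), past the threshold, and edgeR gave 0.97 (adjusted p = 0.201), not past it. The DESeq2 call did not hold in every fit with an animal left out, and each of these fits has fewer animals. It held without WC719 (adjusted p = 4.65e-05 in DESeq2) and without RC6 (0.0479). It was lost without WC616 (0.15), WC921 (0.325), RC4 (0.0634) or RC5 (0.153), with log2 fold changes of 0.80 to 1.23 over the 6 fits. Over all 20 alternatives, limma and edgeR included, the fold change stayed between 0.73 and 1.23 and 3 passed the threshold, all of them DESeq2 fits.

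Markers of 4 other cell types were mostly above 0 in the breed comparison, beside PLIN2. The fibroblast list had 6 of 6 genes above 0 with a median log2 fold change of 0.53, and a summed level of 109 to 177 FPKM in Wagyu against 59.9 to 135 FPKM in Chinese Red Steppes. The smooth muscle and pericyte list had 5 of 6 above 0 with a median of 0.52, and a summed level of 213 to 387 FPKM in Wagyu against 137 to 360 FPKM in Chinese Red Steppes. Macrophages, which store lipid in droplets coated by PLIN2, had 5 of 6 tested markers above 0 and a summed level of 14.2 to 29.1 FPKM in Wagyu against 8.83 to 25.9 FPKM in Chinese Red Steppes. Endothelium had 5 of 6 markers above 0 with a median of 0.20, and a summed level of 62.9 to 86.2 FPKM in Wagyu against 51.2 to 76.9 FPKM in Chinese Red Steppes. No gene of these 4 lists passed limma, and no marker of them was at 0 in all libraries. DESeq2 called 1 of them, the pericyte marker PDGFRB (adjusted p = 0.0443), which held in 2 of 6 fits with 1 animal left out, those without RC4 (0.0319) or RC6 (0.0377). The fat cell, muscle fibre and slow oxidative fibre lists did not lean this way, with 0 of 5, 5 of 10 and 3 of 9 tested markers above 0. The share above 0 among all genes tested was not computed, and their median log2 fold change was 0.03. The part of any of these cell types in the PLIN2 values was not tested.

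PLIN3 (TIP47, ENSBTAG00000011805), a soluble perilipin that binds nascent droplets, overlapped between the breeds. It was at 14.3, 9.72 and 7.90 FPKM in Wagyu, against 7.21, 9.27 and 11.5 FPKM in Chinese Red Steppes. The limma log2 fold change was 0.16 (standard error 0.24, 95% interval -0.41 to 0.72, adjusted p = 0.804). PLIN2 was the more abundant of this pair in all 6 muscles, by 1.73, 1.53 and 3.48 times in Wagyu, against 1.49, 1.19 and 1.03 times in Chinese Red Steppes. This ratio did not overlap between the breeds, with a narrow gap between 1.53 in WC719 and 1.49 in RC4.

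PLIN5 (ENSBTAG00000038464) is the perilipin of oxidative tissues, where it links droplets to mitochondria and binds both PNPLA2 and ABHD5. It was at 37.0, 25.2 and 18.8 FPKM in Wagyu, against 28.3, 29.6 and 92.2 FPKM in Chinese Red Steppes. RC6 alone was high, at 3.18 times the mean of RC4 and RC5, and the other 5 animals overlapped between the breeds. On the log2(FPKM + 1) scale RC6 lay 1.64 above RC4 and RC5 for PLIN5, and 86 of the 9990 genes tested (0.861%) were as far above or farther. The median of the slow fibre list in RC6 was close to this at 1.57, and its part in the PLIN5 value was not tested.

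The mean of PLIN5 was 27.0 ± 9.24 FPKM in Wagyu and 50.05 ± 36.5 FPKM in Chinese Red Steppes (± SD, 3 animals each). In limma, the log2 fold change was -0.70 (standard error 0.46, 95% interval -1.75 to 0.36, adjusted p = 0.513). Without RC6 it was -0.15 (adjusted p = 0.85 in limma). DESeq2 gave -0.90 (unadjusted p = 0.0333, adjusted p = 0.338) with all 6 animals and -0.14 without RC6. The limma interval with all 6 animals covers both a large deficit in Wagyu and a small excess. No difference in PLIN5 was detected after adjustment.

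PLIN4 (ENSBTAG00000015690) was the most abundant perilipin in 4 of the 6 muscles, the exceptions being WC616 and RC6, where PLIN5 was higher. It is best known from fat cells, where it coats small droplets early in their growth. It was at 35.4, 35.1 and 45.4 FPKM in Wagyu, against 59.4, 46.2 and 43.4 FPKM in Chinese Red Steppes. The breeds overlapped only through WC921 and RC6. Its log2 fold change in limma was -0.35 (standard error 0.17, 95% interval -0.75 to 0.05), with an unadjusted p of 0.0783 and an adjusted p of 0.394. In the RefSeq table of assembly ARS-UCD2.0 PLIN4 and PLIN5 are direct neighbours with no gene between them. Their values did not move together over the 6 animals (Pearson r = -0.09, exact permutation p = 0.878; Spearman rho = -0.09, exact p = 0.919; r = -0.18 without WC719 and RC4; all adjusted p at least 0.919 over 45 pairs).

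PLIN1 (ENSBTAG00000015350) is the perilipin that defines the droplet of fat cells and holds ABHD5 back until the cell is stimulated. It was the least abundant of the 5 perilipins in all 6 muscles, at 1.78, 1.76 and 1.08 FPKM in Wagyu, against 1.20, 1.54 and 0.966 FPKM in Chinese Red Steppes. These values came from 91, 92 and 56 reads in Wagyu and 62, 78 and 48 reads in Chinese Red Steppes. The lowest Wagyu animal, WC921, lay below RC4 and RC5. The fold change from limma, as log2, was 0.18 (standard error 0.19, 95% interval -0.27 to 0.63, adjusted p = 0.697). PLIN4, although grouped here with PLIN1, exceeded it in the same library by 19.9, 19.9 and 42.2 times in Wagyu, against 49.5, 30.0 and 45.0 times in Chinese Red Steppes.

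The makeup of the perilipin family is given as the share of each gene in the summed FPKM of PLIN1 to PLIN5. That sum was 113, 86.5 and 101 FPKM in Wagyu, against 107, 97.7 and 160 FPKM in Chinese Red Steppes. PLIN2 took 21.8%, 17.1% and 27.3% of the family in Wagyu, against 10.04%, 11.3% and 7.42% in Chinese Red Steppes. This was the share without overlap, with means of 22.1 ± 5.10% in Wagyu and 9.57 ± 1.96% in Chinese Red Steppes (3 animals each, ± SD). Leaving out each animal in turn kept the difference between 9.89 and 15.0 percentage points.

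PLIN5 took 32.7%, 29.1% and 18.7% of the family in Wagyu, against 26.5%, 30.4% and 57.6% in Chinese Red Steppes. The share in RC6 was again the highest, and the mean difference of -11.3 percentage points became -1.61 without it. PLIN4 took 31.3%, 40.5% and 45.1% in Wagyu, against 55.6%, 47.3% and 27.1% in Chinese Red Steppes. Its shares overlapped only through RC6, which had the lowest of the 6. The mean difference of the PLIN4 share was -4.38 percentage points, -12.5 without RC6 and 1.74 without RC4. PLIN3 took 7.85% to 12.6% in Wagyu and 6.75% to 9.49% in Chinese Red Steppes, and PLIN1 1.07% to 2.04% in Wagyu and 0.604% to 1.58% in Chinese Red Steppes. These shares are a description with no test, since shares of 1 sum depend on each other.

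**Figure D2:**
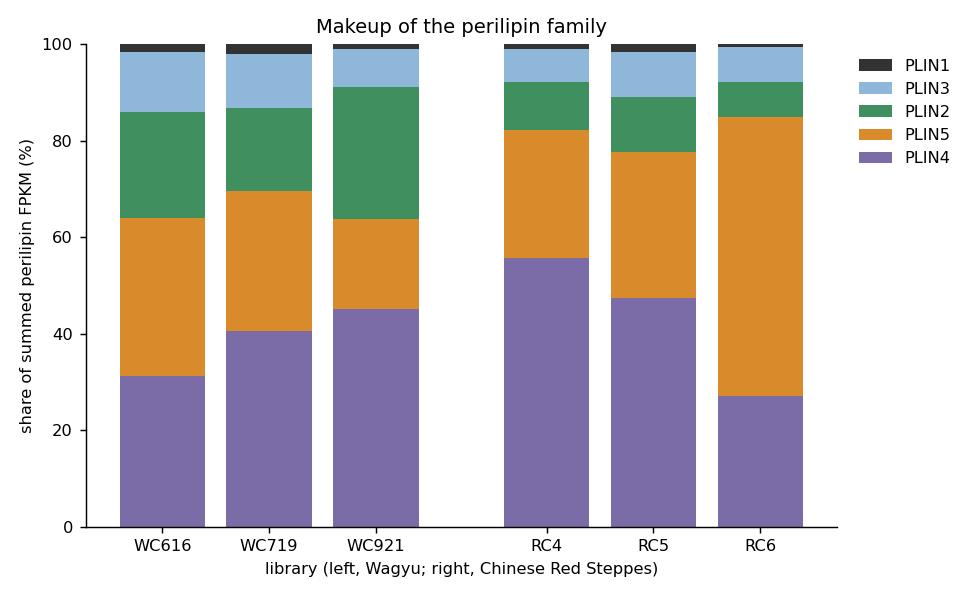
Share of each perilipin, in percent of the summed FPKM of PLIN1 to PLIN5, for each library; Wagyu animals are the 3 left columns and Chinese Red Steppes animals the 3 right columns. The PLIN2 band is 17.1% to 27.3% in Wagyu and 7.42% to 11.3% in Chinese Red Steppes, and PLIN5 fills 57.6% of the column of RC6.

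The ratio of PLIN5, the form of oxidative fibres, to PLIN2, the general form, was 1.50, 1.70 and 0.683 in Wagyu, against 2.64, 2.70 and 7.77 in Chinese Red Steppes. It did not overlap between the breeds also without RC6, and WC921 was the muscle in which PLIN2 exceeded PLIN5. It holds the same PLIN2 values as the share above. Of 9 ratios between genes that were computed, 3 did not overlap between the breeds: this one, PLIN2 to PLIN3, and PNPLA2 to ABHD5, which are described for that reason. The share without overlap among ratios of other gene pairs was not computed, so this count has no background. Among single genes tested, 11.4% did not overlap with Wagyu higher and 9.16% with Wagyu lower. Both ratios with PLIN2 hold a gene that did not overlap by itself.

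CIDEC (ENSBTAG00000007969) and CIDEA (ENSBTAG00000047609) join droplets to each other and pass lipid from the smaller to the larger one, and CIDEC (FSP27 in mice) is needed for the single large droplet of fat cells. CIDEC was at 1.12, 1.69 and 1.20 FPKM in Wagyu, against 0.1002, 1.07 and 0.0521 FPKM in Chinese Red Steppes. In reads these are 22, 34 and 24 in Wagyu, against 2, 21 and 1 in Chinese Red Steppes. RC4 and RC6 were nearly without CIDEC, with exact Poisson 95% intervals of 0.242 to 7.22 reads in RC4 and 0.0253 to 5.57 reads in RC6, whereas RC5 was next to the Wagyu animals. The breeds did not overlap, but the gap between WC616 at 1.12 FPKM and RC5 at 1.07 FPKM was narrow.

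With a mean of 1.33 ± 0.310 FPKM in Wagyu and 0.409 ± 0.577 FPKM in Chinese Red Steppes (± SD, 3 animals each), CIDEC missed the minimum of 1 FPKM. Without that minimum the log2 fold change in limma was 0.79 (standard error 0.28, 95% interval 0.14 to 1.45, adjusted p = 0.402), and the two-sided exact permutation test gave p = 0.1. On the reads the log2 fold change was 1.65 in edgeR (adjusted p = 0.39) and 1.67 in DESeq2 (adjusted p = 0.394). DESeq2 without RC5 gave 4.09 (adjusted p = 0.0124), past the threshold. Without each other animal that DESeq2 could adjust for, CIDEC did not pass (adjusted p 0.53 to 0.792), and without WC616 DESeq2 gave no adjusted p. The intervals of the reads cover counting error only.

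CIDEA was at 4.73, 2.15 and 1.62 FPKM in Wagyu, against 1.20, 1.78 and 2.60 FPKM in Chinese Red Steppes, from 11 to 43 reads per library. WC616 was high and the other 5 animals overlapped. The limma log2 fold change was 0.37 (standard error 0.32, 95% interval -0.37 to 1.12, adjusted p = 0.619). Without WC616 it was 0.04. CIDEA and PLIN3, 1 of each form, stood in the same order in all 6 animals, with WC616 the highest and RC4 the lowest. Over the 45 pairs of the 10 genes this was the closest, at Pearson r = 0.975 (exact permutation p = 0.00139, Benjamini-Hochberg adjusted 0.0625) and Spearman rho = 1 (exact permutation p = 0.00278, adjusted 0.125). Without WC616 and RC4, r was 0.959. Neither value passed the adjustment, and each breed had too few animals for a value of its own.

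Fat cell markers were read beside the fat cell forms. Of 14 listed markers 12 were matched, and 6 of these were under 1 FPKM in every library. ADIPOQ, LEP, ADIG and ACVR1C are named here as defining markers, after their values were seen. ADIPOQ, the gene of adiponectin, had 44, 64 and 7 reads in Wagyu, against 8, 41 and 3 reads in Chinese Red Steppes. The library with the most ADIPOQ reads in each breed, WC719 and RC5, was also the one with the most CIDEC reads in that breed. PLIN1 had its most reads in these libraries too, though only by 1 read over WC616. In FPKM PLIN1 was instead highest in WC616 among Wagyu, at 1.78 against 1.76 in WC719. Among Chinese Red Steppes, FABP4, PPARG and CFD of the same list were not highest in RC5. FABP4, a fatty acid carrier, had 46, 52 and 15 reads in Wagyu, against 10, 71 and 97 in Chinese Red Steppes, and PPARG, the receptor that drives fat cell formation, had 27, 39 and 31 in Wagyu, against 40, 24 and 64 in Chinese Red Steppes. Both were thus highest in RC6, where CIDEC had 1 read. CFD (adipsin) had 167, 150 and 176 reads in Wagyu, against 239, 116 and 213 in Chinese Red Steppes, with its highest value in RC4.

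LEP, the gene of leptin, had 0 reads in the 3 Wagyu libraries and 1, 1 and 0 reads in RC4, RC5 and RC6; a count of 0 allows up to 3 reads in a library. ADIG (adipogenin) had 3, 2 and 3 reads in Wagyu, against 0, 1 and 0 reads in Chinese Red Steppes. PCK1 of the same list, also named after its values were seen, had 22, 22 and 15 reads in Wagyu, against 39, 22 and 24 in Chinese Red Steppes. In FPKM the breeds did not overlap for either gene, with Wagyu higher for ADIG and lower for PCK1. The gap for PCK1 was narrow, between 0.538 FPKM in WC616 and 0.543 FPKM in RC5. ACVR1C was at 0 in all 6. The 5 fat cell markers that entered limma had fold changes below 0, with a median of -0.21 on the log2 scale, and none passed. The summed level of the list was 361 to 524 FPKM in Wagyu against 529 to 707 FPKM in Chinese Red Steppes. Most of it came from GPD1, a glycerol phosphate dehydrogenase that muscle fibres also use, at 357 ± 74.4 FPKM in Wagyu and 550 ± 80.7 FPKM in Chinese Red Steppes (± SD, 3 animals each). The breeds did not overlap for GPD1, with Wagyu lower (adjusted p = 0.268 in limma). The part of fat cells in the values of PLIN1, CIDEC and CIDEA was not tested.

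**Figure D3:**
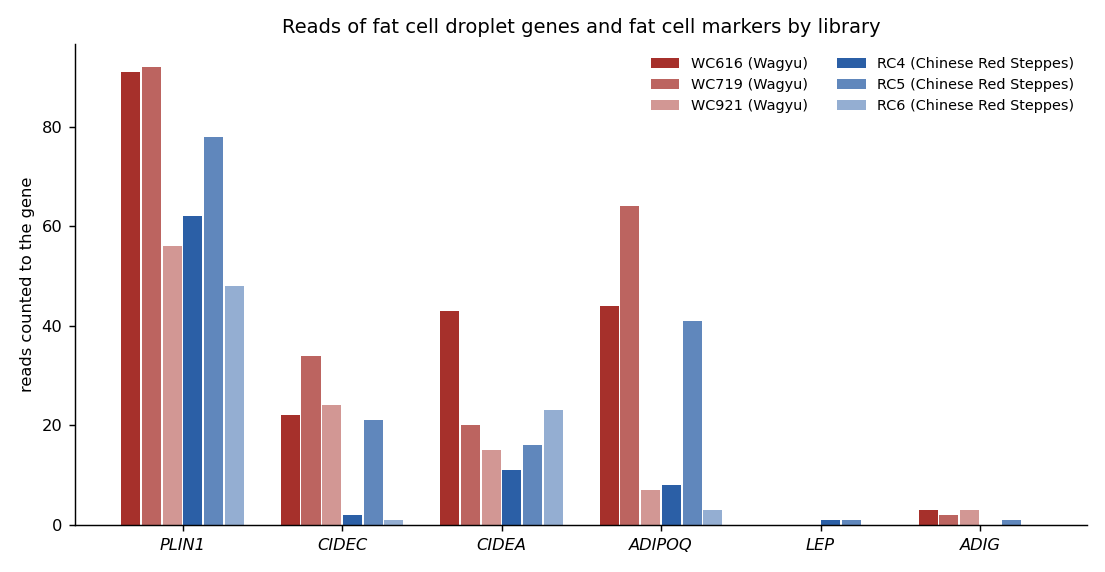
Reads counted to 3 fat cell droplet genes and to 3 fat cell markers in each library, with Wagyu in red and Chinese Red Steppes in blue. CIDEC has 22 to 34 reads in Wagyu and 2, 21 and 1 in RC4, RC5 and RC6, and ADIPOQ is highest in WC719, WC616 and RC5. The 3 markers drawn were picked from the list after their values were seen, and other markers of the list had other orders.

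The 5 fat cell forms together were set against the 5 muscle fibre forms. The fat cell forms summed to 51.5, 50.8 and 62.6 FPKM in Wagyu, against 70.2, 63.5 and 60.1 FPKM in Chinese Red Steppes. The muscle fibre forms summed to 193, 204.9 and 269 FPKM in Wagyu, against 203, 249 and 405 FPKM in Chinese Red Steppes. Both sums overlapped between the breeds, and PLIN4 made up most of the one and PNPLA2 most of the other. A ratio of these sums thus rests mainly on PLIN4 and PNPLA2. The log2 ratio of fat cell to muscle fibre forms was -1.90, -2.01 and -2.10 in Wagyu, against -1.53, -1.97 and -2.75 in Chinese Red Steppes. The Wagyu ratios lay close together and inside the wide range of Chinese Red Steppes, whose low end was RC6 alone. The mean difference was 0.08, and it turned to -0.25 without RC6 and was 0.36 without RC4, so its direction rested on single animals. PLIN1, CIDEA and CIDEC alone summed to 7.63, 5.61 and 3.90 FPKM in Wagyu, against 2.49, 4.39 and 3.62 FPKM in Chinese Red Steppes, again with overlap.

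PNPLA2 (ENSBTAG00000005144), the lipase that opens lipolysis, was the most abundant of the 10 genes and ranked 378 of the 9990 tested by mean level. It was at 113, 152 and 210 FPKM in Wagyu, against 154, 196 and 285 FPKM in Chinese Red Steppes. The animals of a breed differed by 1.85 times from the lowest to the highest in each breed, which covers the difference between the means of 158 ± 48.7 FPKM in Wagyu and 212 ± 67.0 FPKM in Chinese Red Steppes (± SD, 3 animals each). In limma, the log2 fold change was -0.41 (standard error 0.29, 95% interval -1.08 to 0.25, adjusted p = 0.536), and -0.18 without RC6.

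ABHD5 (ENSBTAG00000008416), the coactivator that PNPLA2 needs for full activity, was far less abundant. It was at 3.33, 3.17 and 4.80 FPKM in Wagyu, against 2.04, 3.78 and 4.43 FPKM in Chinese Red Steppes, with overlap. Its log2 fold change in limma was 0.14 (standard error 0.25, 95% interval -0.45 to 0.73, adjusted p = 0.837), and it was -0.11 without RC4. Per ABHD5 there was 34.0, 48.0 and 43.8 times as much PNPLA2 message in Wagyu, against 75.7, 51.8 and 64.4 times in Chinese Red Steppes. This ratio did not overlap between the breeds, with RC5 just above WC719.

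LIPE (ENSBTAG00000038321), the hormone-sensitive lipase that acts on diacylglycerol, was at 8.46, 10.2 and 13.3 FPKM in Wagyu, against 8.33, 12.9 and 13.1 FPKM in Chinese Red Steppes. The breeds covered the same range. Its limma log2 fold change was -0.09 (standard error 0.23, 95% interval -0.61 to 0.44, adjusted p = 0.884), the closest to 0 of the 10 genes. LIPE, although grouped here with the fat cell forms, exceeded PLIN1 in every library. PNPLA2 exceeded LIPE by 13.4, 15.0 and 15.8 times in Wagyu, against 18.5, 15.2 and 21.8 times in Chinese Red Steppes. LIPE and ABHD5 kept close company over the 6 animals (Pearson r = 0.852, exact permutation p = 0.0194, adjusted 0.438 over 45 pairs; Spearman rho = 0.943, exact p = 0.0167, adjusted 0.25; r = 0.89 without WC616 and RC4), without passing the adjustment.

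**Figure D4:**
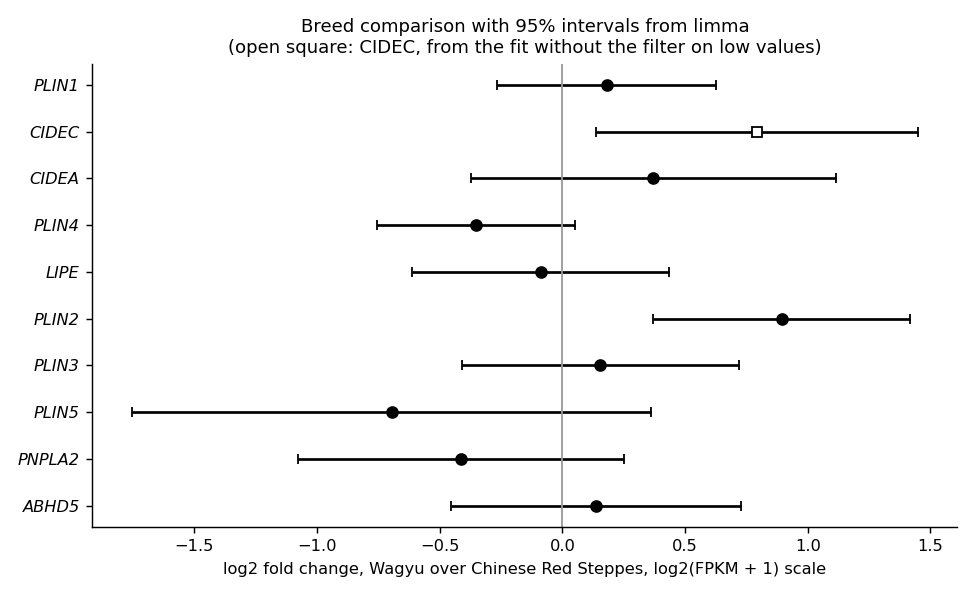
Log2 fold change of the 10 genes, Wagyu over Chinese Red Steppes, on the log2(FPKM + 1) scale, with 95% intervals from limma over 3 animals each; CIDEC (open square) comes from the fit without a minimum level. The intervals of PLIN2 (0.37 to 1.42) and CIDEC (0.14 to 1.45) lie above 0 before any adjustment over genes, and the other 8 cover 0.

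The remaining genes of the lipolysis pathway were read from a list of 23, of which 22 were matched and 17 tested. Of these 9 had fold changes above 0 and 8 below 0, with a median of 0.01, and none passed limma, edgeR or DESeq2. The smallest adjusted p was that of PNPLA8, a phospholipase of mitochondria and peroxisomes, at 2.52 ± 0.688 FPKM in Wagyu and 3.81 ± 0.884 FPKM in Chinese Red Steppes (± SD, 3 animals each; adjusted p = 0.385 in limma). PRKACA, a catalytic subunit of the protein kinase A that activates LIPE, was at 94.5 ± 14.7 FPKM in Wagyu and 76.4 ± 12.1 FPKM in Chinese Red Steppes (± SD, 3 animals each; adjusted p = 0.451 in limma).

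A pair of further lipolysis genes was named after their values were seen, for their place in the pathway. MGLL, the monoacylglycerol lipase of the last step, was at 92.9, 119 and 139 FPKM in Wagyu, against 73.5, 82.1 and 185 FPKM in Chinese Red Steppes. G0S2, the protein inhibitor of PNPLA2, was at 3.82, 1.71 and 0.980 FPKM in Wagyu, against 2.95, 3.77 and 1.88 FPKM in Chinese Red Steppes. Both overlapped between the breeds. In Wagyu the animal with the most PNPLA2, WC921, had the least G0S2, and in Chinese Red Steppes this was RC6. The ratio of PNPLA2 to G0S2 was 29.7, 89.0 and 214 in Wagyu, against 52.2, 51.9 and 152 in Chinese Red Steppes.

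**Figure D5:**
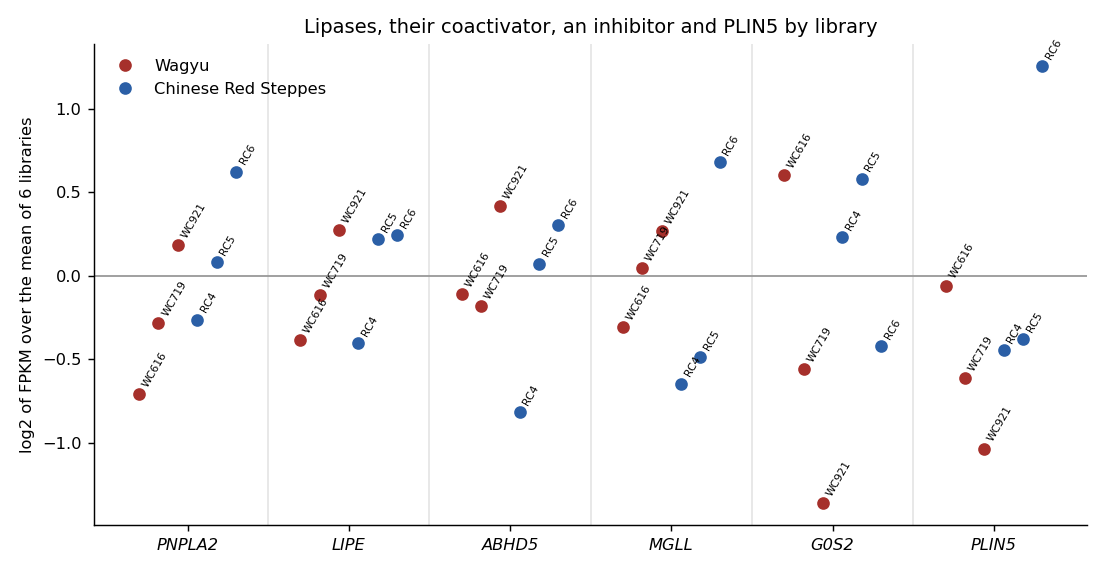
Level of each gene in each library on a log2 scale, relative to the mean FPKM of that gene over the 6 libraries, with Wagyu in red and Chinese Red Steppes in blue. PNPLA2, MGLL and PLIN5 are highest in RC6, G0S2 is lowest in WC921, and the breeds overlap for all 6 genes.

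Of 18 other droplet proteins 13 were tested, with 6 above 0, 7 below 0 and a median of -0.03, and none passed limma, edgeR or DESeq2. FITM2, an endoplasmic reticulum protein needed for droplets to form, was at 4.52, 4.46 and 4.34 FPKM in Wagyu, against 5.50, 5.98 and 10.9 FPKM in Chinese Red Steppes. The breeds did not overlap, the highest value was again in RC6, and the limma log2 fold change of -0.58 (adjusted p = 0.334) became -0.31 without RC6. BSCL2 (seipin), which shapes the contact between droplet and endoplasmic reticulum, was at 13.1 ± 0.929 FPKM in Wagyu and 10.1 ± 1.45 FPKM in Chinese Red Steppes without overlap (± SD, 3 animals each; adjusted p = 0.336 in limma).

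The 16 genes of triacylglycerol synthesis, which fills the droplets, gave 13 tested genes, with 7 above 0, 6 below 0 and a median of 0.00, and none passed limma, edgeR or DESeq2. The smallest adjusted p was that of AGPAT2, an acyltransferase that makes phosphatidic acid, with 120, 146 and 171 FPKM in Wagyu, against 107, 78.1 and 98.3 FPKM in Chinese Red Steppes. The breeds did not overlap for AGPAT2 (log2 fold change 0.62, adjusted p = 0.249 in limma). GPAM, the mitochondrial acyltransferase of the first step, resembled PLIN5 in its single high animal. It was at 3.34, 3.79 and 3.71 FPKM in Wagyu, against 3.30, 4.15 and 29.5 FPKM in Chinese Red Steppes. Its limma log2 fold change was -0.93 (adjusted p = 0.551), and -0.03 without RC6.

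PLIN2, PLIN5 and PNPLA2 are known targets of the PPAR receptors, which respond to fatty acids. Of the 20 PPAR receptors, coactivators and targets 19 were tested, with 13 above 0 and 6 below 0 and a median of 0.25, and none passed limma or edgeR. ANGPTL4, an inhibitor of lipoprotein lipase that passed in DESeq2, was at 13.6, 12.4 and 10.5 FPKM in Wagyu, against 21.8, 20.1 and 24.9 FPKM in Chinese Red Steppes. The log2 fold change was -0.82 in limma (adjusted p = 0.156), and the adjusted p in DESeq2 was 0.00315. That call held in 4 of 6 fits with 1 animal left out and was lost without WC719 (0.0572) or WC921 (0.0544). The breeds did not overlap for ANGPTL4, with Wagyu lower. PPARA, a PPAR receptor itself and named after its values were seen, also did not overlap, but with Wagyu higher. It was at 11.4, 8.95 and 9.11 FPKM in Wagyu, against 8.32, 7.65 and 4.26 FPKM in Chinese Red Steppes. PPARA did not pass (log2 fold change 0.52, adjusted p = 0.37 in limma).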

How the data were processed

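RNA was measured in longissimus dorsi muscle of 3 Wagyu and 3 Chinese Red Steppes males, 1 library per animal, grouped by the breed in the labels. The authors removed adaptors and low-quality reads, aligned and counted reads, and deposited FPKM values of 21972 genes, with no other scaling between libraries. The paper names TopHat and Bowtie and the submitters' processing notes HISAT2, with build UMD3.1; which of these made the values was not settled, and strand and shared reads are not described, so values of near-identical or overlapping genes are uncertain. The authors also deposited raw counts of 205 genes, with a signal per breed (mean of scaled counts), a log2 fold change and an adjusted p-value (FDR) of their own comparison. The last 3 were not used, and none of the 10 genes is in that table.

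The 205 genes given in both units fixed the total of reads counted per library, and the FPKM of every gene was turned back into reads. All 16770 genes above 0 came out whole (100% of values, relative tolerance 1e-09), and 203 of the 205 matched the deposited counts. Recovered reads were 99.8% of the totals. Read counts of all 15 library pairs lay further apart than sampling noise allows (28.7 to 195 as chi-square over its degrees of freedom), so no library was merged with another. The pairs with RC6 were the farthest apart, at 153 to 195.

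Breeds were tested two-sided in R 4.3.3 with limma 3.58.1 (moderated statistics with a mean-variance trend). The values were log2(FPKM + 1) of genes whose mean reached 1 FPKM, with Benjamini-Hochberg adjustment over all of them and a threshold of 0.05; fold changes on this scale understate those of low genes. edgeR (4.0.16, quasi-likelihood) and DESeq2 (1.42.0) on recovered reads, other pseudocounts, filters and scalings, and leaving out each animal were alternatives; DESeq2 without each animal was added after the data were seen. An adjusted p that DESeq2 left empty stayed empty. limma, edgeR and DESeq2 were tested on simulated data. Exact permutation tests used scipy 1.17.1 (Python 3.11.15, numpy 2.4.6, pandas 2.3.3). Replicates are separate animals.

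The 10 genes and the lists were chosen with earlier results of these data known. Named are all 10 genes, up to 4 genes per other list with the smallest adjusted p, and the 5 genes closest to PLIN1 and to PLIN5 by Pearson r; genes outside this rule are said to be so. Results of 1 listed gene are not reported here. Names come from the deposited table, and all 10 symbols are in the RefSeq table (ARS-UCD2.0), used for names and for which genes are neighbours; none of its coordinates is given because the builds differ.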

Additional observations from a re-analysis of the deposited data

How the results depend on the processing

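Over all genes limma called 2, against 1 with a pseudocount of 0.1, 0 with a mean of at least 5 FPKM, 0 with no minimum, 4 without trend, 8 in edgeR, 237 in DESeq2, and 0 to 3 with an animal left out. Of the 10 genes limma called 0 under these settings, also with each animal left out, and DESeq2 called 1 (PLIN2), as it did without WC719 (1, PLIN2), RC5 (1, CIDEC) and RC6 (1, PLIN2), and 0 without WC616, WC921 or RC4. Of 188 fold changes of the 10 genes under alternatives 174 kept direction and side of the threshold, 4 moved past it and 10 turned round, all of the 10 not called. With an animal left out limma gave -0.0595 to 0.33 for PLIN3, -0.28 to 0.0511 for LIPE and -0.11 to 0.31 for ABHD5. DESeq2 gave -0.13 for PLIN3 and -0.0239 for CIDEA without WC616, and -0.10 without WC921 and -0.13 without RC4 for ABHD5. Of genes with an unadjusted p under 0.05, 863 were higher and 586 lower in Wagyu in limma, 688 and 749 after quantile normalization, and 870 and 784 in DESeq2; the cause was not tested. With an animal left out, the mean breed differences in share were 9.89 to 15.0 percentage points for PLIN2, -17.2 to -1.61 for PLIN5, -12.5 to 1.74 for PLIN4, 1.72 to 4.11 for PLIN3 and 0.211 to 0.705 for PLIN1, and that of the log2 ratio of fat cell to muscle fibre forms was -0.25 to 0.36. From reads not divided by length they were 8.91, -8.14, -3.58, 2.17, 0.636 and 0.028 in the same order. All these moves were smaller than the larger of the SDs of the breeds. For PLIN4, PLIN5 and the ratio that is the SD of Chinese Red Steppes, which holds RC6. With an animal left out this had to be so, because dropping 1 of 3 animals moves a mean by less than the SD. It is no sign of stability, and the differences for the PLIN4 share and the ratio changed sign. No paired analysis was possible because the labels give the breeds no shared replicate numbers. With 3 animals a breed the exact test cannot go below 0.1, and PLIN1, CIDEA and CIDEC rest on under 100 reads a library.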

Other observations

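Genes whose level followed PLIN1 and PLIN5 most closely over the 6 libraries are listed as a description, since 6 points that share breed, sire and RC6 give high correlations to many of 9989 genes. For PLIN1 they were MAU2, a cohesin loader (Pearson r = 0.995), TOMM22 (0.982) and SAMM50 (0.979), which import and insert proteins at the outer mitochondrial membrane, SLC25A35 (0.977) and CDK12 (0.974), and 46 genes reached 0.9. None of the 5 is in the list of fat cell markers.

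For PLIN5 they were GEMIN2 (r = 0.998), METTL11B (0.990), LPL (0.990), OAZ2 (0.989) and D2HGDH (0.989), and 201 genes reached 0.9. LPL, the lipoprotein lipase that releases fatty acids from circulating lipoproteins, had 11.7, 7.67 and 5.01 FPKM in Wagyu, against 6.73, 8.64 and 43.6 FPKM in Chinese Red Steppes. RC6 was the highest library for PLIN5, LPL and the other 4. Without RC6 the correlation with PLIN5 was 0.986 for GEMIN2, 0.947 for METTL11B, 0.940 for LPL, 0.931 for OAZ2 and 0.929 for D2HGDH over 5 libraries. Those 5 libraries were also used to pick the genes, so these correlations are no separate check on the part of RC6. The LPL fold change from limma was -0.78 on the log2 scale (adjusted p = 0.599), and 0.01 without RC6.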
